A study of Mus musculus with 10 samples.

Results

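Chromatin accessibility was examined at 9 mouse genes that carry platinum drugs or copper across membranes or bind metals. The genes were chosen by name for these functions: Slc31a1, Slc31a2, Atp7a, Atp7b, Slc22a2, Slc22a3, Abcc2, Mt1 and Mt2. Every called peak interval that overlapped one of them, with 10 kb added on each side, was taken as a member. Intervals of all 5 peak lists that shared at least 1 bp were merged into regions, which gave 97 member regions of 211107 in all. The windows of Mt1 and Mt2 overlap, so that 8 regions belong to both. Assay for transposase-accessible chromatin (ATAC-seq) reads pile up where a transposase can reach DNA, so a region marks open chromatin, not expression.

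The cells were Myc-CaP, a prostate cancer line of male FVB/NJ mice driven by a Myc transgene. All groups are this 1 line, sampled at 48 h. Ctrl cells received no agent, Oxali cells 2 µM oxaliplatin, Cispl cells 2 µM cisplatin, and IFNγ cells interferon-γ, which the labels give as 1000 pg without a volume. Oxali + IFNγ cells, called the combination here, received both agents at these amounts. Each of the 5 groups had 2 libraries, and the authors pooled them before peaks were called, so that 1 list stands for each group. With these lists no difference below could be set against the spread between replicates, and no test was run. Intervals in the text are 95% counting intervals of the ratio, which cover counting error only and take read ends as independent.

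Platinum drugs enter and leave cells partly on proteins that normally handle copper or organic cations. Slc31a1 encodes the high-affinity copper importer CTR1, and Slc31a2 its relative CTR2. Atp7a and Atp7b encode copper-exporting ATPases, Slc22a2 and Slc22a3 the organic cation transporters OCT2 and OCT3, and Abcc2 the export pump MRP2, which moves glutathione conjugates. Mt1 and Mt2 encode metallothioneins, small cysteine-rich proteins that bind zinc, copper and other metals, and metals induce their transcription through metal response elements. Cisplatin carries ammine ligands and chloride leaving groups on platinum, whereas oxaliplatin carries a diaminocyclohexane ligand and an oxalate leaving group. The comparison of the Oxali and Cispl lists, at the same dose and time, asks whether these genes differ in accessibility between the drugs.

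The promoters of the metallothioneins are shown because the metal response element is the known control sequence of these genes, and the Mt locus held the widest platinum differences against Ctrl by level over the genome background. Capitals mark matches on either strand to the metal response element core, searched as TGCACNC or TGCGCNC, and to the antioxidant response element core, searched as TGACNNNGC. Sequences are from RefSeq, build GRCm38.p6, plus strand, and stop before the first annotated transcript base.
Mt1, chr8:94178839-94179081: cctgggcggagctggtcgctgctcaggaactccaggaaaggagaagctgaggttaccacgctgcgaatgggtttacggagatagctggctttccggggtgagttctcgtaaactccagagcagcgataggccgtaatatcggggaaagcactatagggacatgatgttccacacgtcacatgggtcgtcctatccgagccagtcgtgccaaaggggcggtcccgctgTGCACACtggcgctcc
Mt2, chr8:94172368-94172617: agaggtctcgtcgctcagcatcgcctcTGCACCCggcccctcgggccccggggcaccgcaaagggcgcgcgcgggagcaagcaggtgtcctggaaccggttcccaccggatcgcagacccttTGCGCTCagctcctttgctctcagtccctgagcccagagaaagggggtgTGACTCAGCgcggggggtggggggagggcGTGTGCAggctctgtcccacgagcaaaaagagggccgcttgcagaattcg

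All 9 members had an entry of 300 bases, from 250 before to 50 after the RefSeq start, in the table of promoters. In that window the metal core matched 3 times for Mt1 and 4 times for Mt2, counting matches past the start that are not printed. Of 32851 promoters, 1.97% held at least 3 matches, and 25.7% at least 1. Atp7a had 2 matches, Slc31a2 and Atp7b 1 each, and Slc31a1, Slc22a2, Slc22a3 and Abcc2 none in these letters. The antioxidant core was in Slc31a2, Abcc2 and Mt2, against 12.4% of all promoters. In Mt2 it overlaps the AP-1 core, searched as TGANTCA, which 7.81% of promoters held. Up to the coding start the metal core matched 5 times for Mt1 and 7 times for Mt2. At each gene 4 of these matches lay past the RefSeq start, outside the printed stretch. A match is a description of the letters and not a bound site.

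By genome background, depth relative to Ctrl was 92.9% in the Oxali list, 113% in Cispl, 79.3% in IFNγ and 106% in the combination. The level of a region is given as its highest pileup, the number of extended read ends over 1 base, divided by the genome background of its list, which ran from 9.62 to 13.8. Start-site regions, within 1 kb of an annotated start, had lower levels in every treated list across the genome. Over the 13968 start-site regions called in every list, the median level relative to Ctrl was 0.77 for Oxali, 0.678 for Cispl and 0.709 for IFNγ, beside 0.598 for the combination. An alternative scale, the start-site scale, divides instead by the median pileup of these regions in the list. It multiplies the levels relative to Ctrl by 1.31 for Oxali, 1.49 for Cispl and 1.47 for IFNγ, beside 1.76 for the combination, and is given where it turns a stated direction. The Cispl list ends at a −log10 p of 2.99 and the others at 2.00, so weak regions are missing from it. Of the prostate epithelial markers described here, Krt8, Foxa1 and Hoxb13 had a start-site region in every list, Krt18 in the Ctrl and Oxali lists and Epcam in the IFNγ list, whereas Cdh1 had none. None of 3 leukocyte markers and not the hepatocyte gene Alb had one, while Pecam1, 1 of 2 endothelial markers, had one in the Ctrl, Cispl and Oxali + IFNγ lists, and both fibroblast markers, Col1a1 and Pdgfra, had one in every list.

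Across the 9 genes, 49 regions were called in Ctrl, 69 for Oxali, 82 for Cispl and 45 for IFNγ, beside 74 for the combination. As shares of the 97 these were 50.5%, 71.1%, 84.5%, 46.4% and 76.3%, beside 52.4%, 70%, 77.4%, 50.8% and 79.1% of all regions in the same order. The platinum lists thus held more regions than Ctrl both at these genes and over the genome. Of the 97 regions, 38 (39.2%) were called in every list, against 40.4% of all regions. Another 12 were called with Cispl alone (12.4%, against 9.11% of all), 7 with the combination alone (7.22%, against 8.2%) and 2 with Oxali alone (2.06%, against 2.34%). Of the 97 regions, 47 lay in introns, 12 over exons, 13 at start sites, 19 downstream and 6 upstream.

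**Figure D1:**
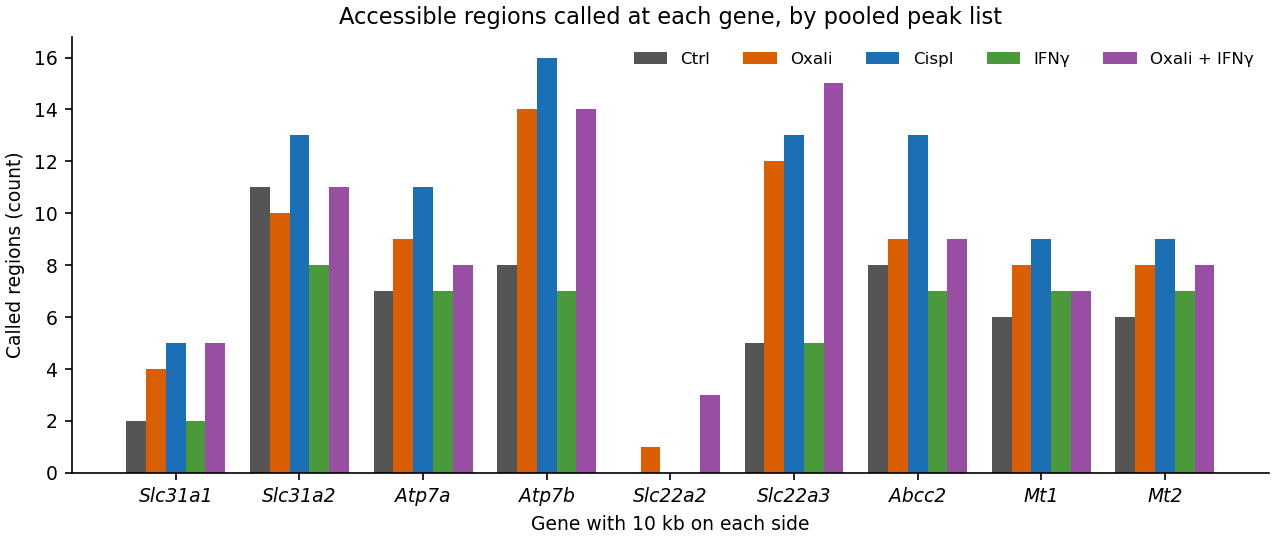
Number of called regions (vertical axis, count) at each gene with 10 kb on each side, with 1 bar for each pooled list. Slc22a3 has 5 regions in Ctrl, 12 with Oxali and 13 with Cispl, while Slc22a2 has no region in Ctrl, Cispl or IFNγ.

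Between the drugs, more regions were unique to Cispl than to Oxali, at these genes and over the genome. A region with a q-value no higher than 0.01 counted as strong, and as unique to a drug when strong in its list and not called in the other. Of 66 strong Oxali regions, 7 (10.6%) were absent with Cispl, against 11.3% of all strong Oxali regions. Of 81 strong Cispl regions, 20 (24.7%) were absent with Oxali, against 20.2% of all. With each list limited to 100000 regions, 12 were unique to Cispl, and at a q-value of at most 1e-05, 3 were unique to Oxali. No share over all regions is given for these settings.

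In the 62 regions that both drugs shared, the median Cispl level was 0.895 of the Oxali level, with a range of 0.551 to 2.2. Over all 129321 shared regions the median was 0.932. The level was at least 1.5-fold higher with Cispl in 5 regions (8.06%, against 6.95% of all) and at least 1.5-fold higher with Oxali in 7 (11.3%, against 12.2%). With levels scaled to start sites, the median turned to 1.02, and the counts to 8 higher with Cispl and 3 higher with Oxali. This scale multiplies the ratio of every region by the same factor, so the member median stays below that over all shared regions. Shares over all regions are not given on this scale. The called intervals covered more bases with Cispl at 8 of the 9 genes, and the same held for 79.5% of 18894 genes with a platinum region.

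**Figure D2:**
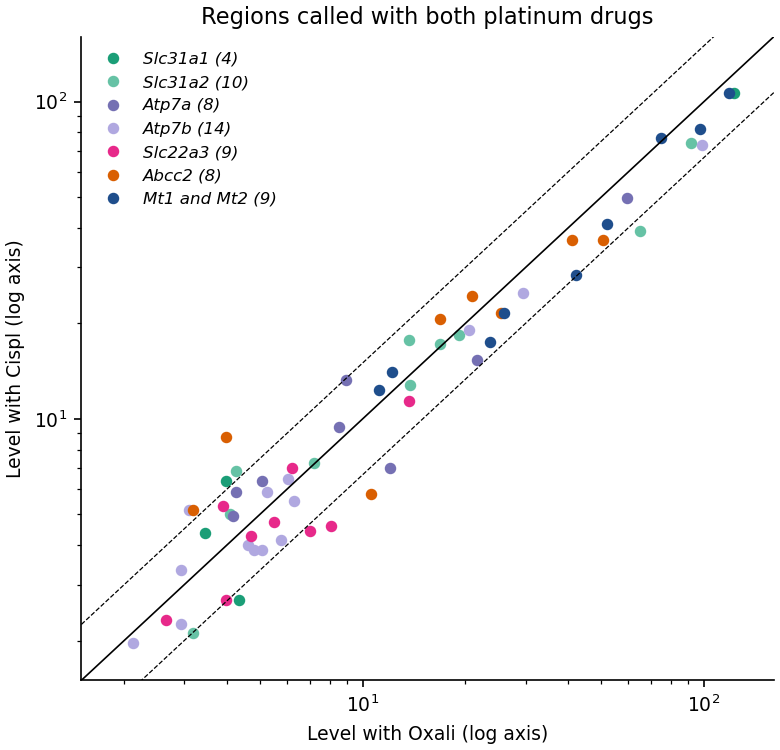
Level (pileup over genome background, log axes) of the 62 regions called with both drugs, Oxali horizontal and Cispl vertical, with the number of regions per gene. The solid line marks equal levels and the dashed lines a 1.5-fold difference. Most points lie between the dashed lines, and the point farthest above them is the Abcc2 intron with a ratio of 2.2.

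Against Ctrl, which both drug comparisons share, 21 of 66 strong Oxali regions (31.8%) were gained, that is, not called in Ctrl, beside 31.4% of all. With Cispl 32 of 81 (39.5%) were gained, beside 36.5% of all, and with Oxali + IFNγ 27 of 73 (37%), beside 38.1%. IFNγ alone gained 3 of 44 (6.82%), beside 11.8%, and 7 or 8 when the intervals of each list were kept apart. Of the 47 strong Ctrl regions, 4 were lost with Oxali (8.51%, against 9.02% of all), 0 with Cispl (6.07% of all), 6 with IFNγ (12.8%, against 15.3%) and 3 with Oxali + IFNγ (6.38%, against 7.69%). With the lists limited to 100000 regions each, 9 were gained and 7 lost with Oxali, 13 gained and 6 lost with Cispl, and 9 gained and 9 lost with the combination. No share over all regions is given for the limited lists or the intervals kept apart. These counts can therefore not be set beside the genome. The median level relative to Ctrl was 1.02 over the 45 regions shared with Oxali, beside 1.14 over all regions shared, and 1.06 over the 49 shared with Cispl, beside 1.09. For IFNγ it was 0.803, beside 0.854, and for the combination 0.996, beside 1.13. Both turned above Ctrl on the start-site scale, at 1.18 for IFNγ, beside 1.25 over all regions, and 1.75 for the combination, beside 1.99. Levels at least 1.5-fold higher than Ctrl were seen in 8 of 45 shared regions with Oxali (17.8%, against 29.2% of all) and in 7 of 49 with Cispl (14.3%, against 25.5%). Levels at least 1.5-fold lower were seen in 6 with Oxali (13.3%, against 7.7%) and in 8 with Cispl (16.3%, against 12%). On the start-site scale none was 1.5-fold lower, with lowest values of 0.687 for Oxali and 0.738 for Cispl, and more were 1.5-fold higher. Shares over all regions on that scale are not given.

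At the copper importer Slc31a1 (chromosome 4), the start-site region at chr4:62360102-62361460 also covers the start of Fkbp15, so its signal cannot be told apart between the 2 genes. Its pileup was 2343 in Ctrl, 1372 for Oxali, 1455 for Cispl and 1118 for IFNγ, beside 1076 for the combination. Ctrl was the highest and the drug lists lay close together. The Cispl level was 0.869 of the Oxali level (0.806 to 0.936) and 0.548 of the Ctrl level (0.513 to 0.585). A region at chr4:62383864-62384553, within 1 kb of a later annotated start, had pileups of 55, 45, 88, 29 and 49 in the same order. It was highest with Cispl, at 1.6 times the Oxali level (1.11 to 2.35). Downstream, chr4:62393192-62393405 was absent in Ctrl and IFNγ and had pileups of 49 with Oxali, 37 with Cispl and 48 with the combination, so that Cispl was lower, at 0.618 of Oxali (0.392 to 0.967). An intronic region at chr4:62367679-62367926 was called with Cispl (pileup 59) and Oxali + IFNγ (34) and in no other list.

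Slc31a2, 62262562 to 62298411 on the same chromosome, held 14 regions. Its most accessible region lay at a start site inside the locus, chr4:62286007-62287304, with pileups of 1265 in Ctrl, 1034 for Oxali, 1018 for Cispl and 657 for IFNγ, beside 833 for the combination. The Cispl level was 0.806 of the Oxali level (0.739 to 0.88). The intronic region at chr4:62280065-62281713 gave 640, 733, 538, 546 and 710, and its level was lowest with Cispl and highest with Oxali. On the start-site scale Ctrl was the lowest, with Cispl at 1.11 of Ctrl, and the combination, at 1.84, was above Oxali, at 1.61. Over the local background IFNγ was the highest, at 1.03 of Ctrl, and Oxali was at 0.976 of Ctrl. The Cispl level of this region was 0.601 of the Oxali level (0.537 to 0.673), and 7.29% of all shared regions had a ratio as low or lower. Upstream, at chr4:62256996-62257249, the order was the opposite, with pileups of 55, 48 and 94 in Ctrl, Oxali and Cispl, 48 with Oxali + IFNγ and no call with IFNγ. The Cispl level there was 1.6 times the Oxali level (1.12 to 2.32). Relative to Ctrl the Oxali level was 0.94, or 1.23 on the start-site scale, and that of the combination 0.821, or 1.44. At the first annotated start, chr4:62263279-62264091 gave 68, 81, 100, 25 and 61, and the drugs did not differ beyond counting error, with a ratio of 1.01 (0.747 to 1.37). The region at chr4:62300620-62301238 was called in Ctrl (40), Cispl (92) and Oxali + IFNγ (45) but not with Oxali. The remaining regions unique to Cispl between the drugs were chr4:62279561-62279950, called also in Ctrl and IFNγ, and a region before the first start, chr4:62261872-62262037, with a pileup of 36. The former lies just before chr4:62280065-62281713, which every list held, over a local background of 93.2 with Cispl. A list without a call may still hold reads there.

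The exporter Atp7a (chromosome X, 106027276 to 106124926) had a start-site region at chrX:106026486-106027707 with pileups of 1016, 671, 682, 652 and 599 in Ctrl, Oxali, Cispl, IFNγ and Oxali + IFNγ. All treated lists lay below Ctrl, although IFNγ turned above it on the start-site scale, and the Cispl level was 0.832 of the Oxali level (0.747 to 0.927). An intronic region 16.7 kb into the gene, chrX:106043783-106044815, gave 169, 135, 96, 124 and 128. Cispl was the lowest there, at 0.582 of Oxali (0.444 to 0.762) and 0.501 of Ctrl (0.386 to 0.647). Farther along the gene, chrX:106080848-106081715 gave 207, 101, 183, 118 and 153, so that Oxali was the lowest, at 0.525 of Ctrl (0.41 to 0.67). The Cispl level there was 1.48 times the Oxali level (1.16 to 1.91), so the order of the drugs was opposite at these intronic regions. Regions unique to Cispl numbered 3, with pileups of 51, 43 and 38, and 1 was unique to Oxali, with a pileup of 28.

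Atp7b (chromosome 8, 21992785 to 22060305, minus strand) shares its start-site region, chr8:22060089-22061017, with Alg11. Pileups there were 1788 in Ctrl, 1112 for Oxali, 1001 for Cispl and 750 for IFNγ, beside 800 for the combination. The Cispl level was 0.737 of the Oxali level (0.676 to 0.804), the lowest ratio among the 6 start-site regions by level but not over the local background, and 0.494 of Ctrl (0.457 to 0.534). A region past the end of the gene, chr8:21992254-21992732, differed the other way, with pileups of 141, 231, 262, 74 and 299. It was high in the 3 lists with platinum and low in Ctrl and IFNγ, and its level relative to Ctrl was 1.76 with Oxali (1.42 to 2.19) and 1.64 with Cispl (1.33 to 2.03). The ratio of the drugs was 0.929 (0.775 to 1.11), or 1.06 on the start-site scale. Of the 16 regions at Atp7b, 8 were called in Ctrl, 14 with Oxali and 16 with Cispl. An intron at chr8:22054687-22055396 gave 28, 35, 71, 24 and 50, with the Cispl level at 1.66 times that of Oxali (1.09 to 2.57). Just upstream of the start, chr8:22061069-22061376 was called in the platinum lists alone, with pileups of 68 for Oxali, 89 for Cispl and 55 for the combination. Only the Cispl call was strong, with a −log10 q of 6.1, against 1.78 for Oxali and 0.569 for the combination. The region, also at the start of Alg11, lies beside the main start-site region over a local background of 39.9 to 47. A list without a call may still hold reads there. Exonic regions near the end of the gene, chr8:21993958-21994238 and chr8:21994494-21994643, were called with Cispl (45 and 32) and not with Oxali, and the first also with the combination (74).

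The levels at start sites were lower in nearly all treated lists for the 6 genes with such a region, in the direction of start sites at large. Relative to Ctrl they had a median of 0.69 for Oxali, 0.596 for Cispl and 0.586 for IFNγ, beside 0.515 for the combination. The exception was Mt2 with Oxali, at 1.01. All 6 ratios of Cispl to Oxali were below 1, with a median of 0.837, beside 0.881 over all start-site regions called with both drugs. On the start-site scale the Mt1 ratio turned to 1.03. On that scale Slc31a2 turned above Ctrl with Oxali (1.15), Cispl (1.06) and the combination (1.09), Mt2 with Cispl (1.27) and the combination (1.1), and Atp7a with IFNγ (1.19).

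**Figure D3:**
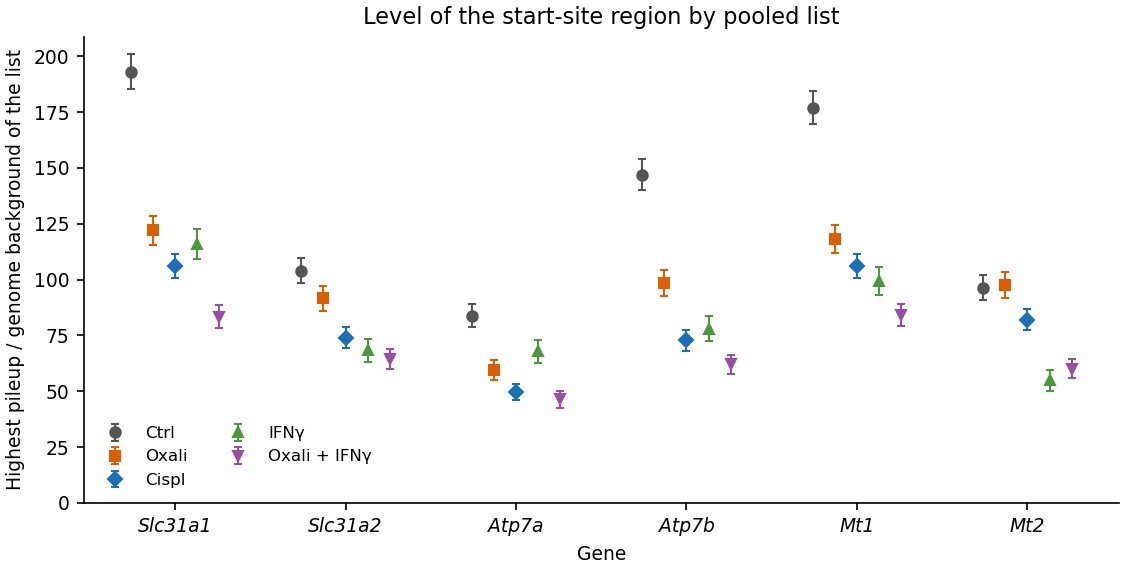
Level (highest pileup over genome background of the list) of the main start-site region of the 6 genes that have one, by pooled list, with bars for the 95% counting error of the pileup. Ctrl is the highest point for every gene but Mt2, where Ctrl is at 96.3 and Oxali at 97.6, and each Cispl point lies below the Oxali point. On the start-site scale the order turns for Mt1 between the drugs, at 1.03, and for parts of Slc31a2, Mt2 and Atp7a against Ctrl.

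The organic cation transporters differed from the copper genes in having no start-site region in any list. Slc22a2 (chromosome 17, 12584132 to 12628488) had no region in Ctrl, Cispl or IFNγ. With Oxali 1 upstream region was called at chr17:12577266-12577433 with a pileup of 28, and with Oxali + IFNγ 3 others had pileups of 27, 32 and 34. The smallest pileup that could be called over the genome background was 18 to 26 by list, so these values are close to the limit of detection.

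Slc22a3 (chromosome 17, 12418960 to 12507704, minus strand) held 19 regions, with low pileups at most. The most accessible in Ctrl lay downstream, at chr17:12415894-12416805, with pileups of 117 in Ctrl, 154 for Oxali, 157 for Cispl and 85 for IFNγ, beside 196 for the combination. Called regions numbered 5 in Ctrl, 12 for Oxali, 13 for Cispl and 5 for IFNγ, beside 15 for the combination. With Oxali 8 of 12 strong regions were gained, beside 31.4% of all strong Oxali regions, and with Cispl 8 of 13, beside 36.5%. Their pileups were 30 to 62 with Oxali and 28 to 73 with Cispl. The intron region chr17:12497526-12498513 had pileups of 44 in Ctrl, 91 for Oxali, 63 for Cispl and 28 for IFNγ, beside 115 for the combination. Both lists with oxaliplatin were high there, and the Cispl level was 0.567 of the Oxali level (0.405 to 0.79). At the 3′ end, over an exon, chr17:12419767-12420345 gave 25, 79 and 61 in Ctrl, Oxali and Cispl and 87 with Oxali + IFNγ, with no call with IFNγ. The Oxali level there was 3.4 times Ctrl (2.15 to 5.57) and the Cispl level 2.15 times (1.33 to 3.58). Regions upstream at chr17:12514088-12514271 and in an intron at chr17:12440133-12440370 were called only in the Oxali and Oxali + IFNγ lists, with pileups of 40 and 39 and of 36 and 44. The reverse case, over an exon at chr17:12421322-12421494, was called in every list but Oxali, with pileups of 39 in Ctrl, 47 for Cispl and 41 for IFNγ, beside 43 for the combination.

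The export pump Abcc2 (chromosome 19, 43782192 to 43840740) also lacked a start-site region, although some of its intronic regions were called in every list. The most accessible of them in Ctrl, chr19:43830716-43831921, had pileups of 554 in Ctrl, 572 for Oxali, 503 for Cispl and 273 for IFNγ, beside 545 for the combination. The Oxali level was 1.11 times Ctrl (0.988 to 1.25), and the Cispl level was 0.72 of the Oxali level (0.638 to 0.813). By level over the genome background, the widest difference between the drugs among all 62 shared regions was in another intronic region, chr19:43813754-43814261. It was not called in Ctrl and had pileups of 45 for Oxali, 121 for Cispl and 22 for IFNγ, beside 61 for the combination. The Cispl level was thus 2.2 times the Oxali level (1.55 to 3.17), and 0.864% of all shared regions had a ratio as high or higher. Over the local background the ratio was 1.63, and intronic regions of Slc22a3 (0.578) and Atp7a (0.593) then differed more. An exonic region at chr19:43825815-43826262 went the other way, with 99, 119, 80, 75 and 122, and its Cispl level was 0.551 of the Oxali level (0.409 to 0.737), the lowest of the 62. Regions unique to Cispl between the drugs numbered 5, of which chr19:43832791-43833001 had a pileup of 124 and lies close to an exonic region that all lists held. Another lay over an exon near the start, at chr19:43784150-43784321, with a pileup of 47, and a further one lay downstream, at chr19:43845267-43845476, with a pileup of 39.

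**Figure D4:**
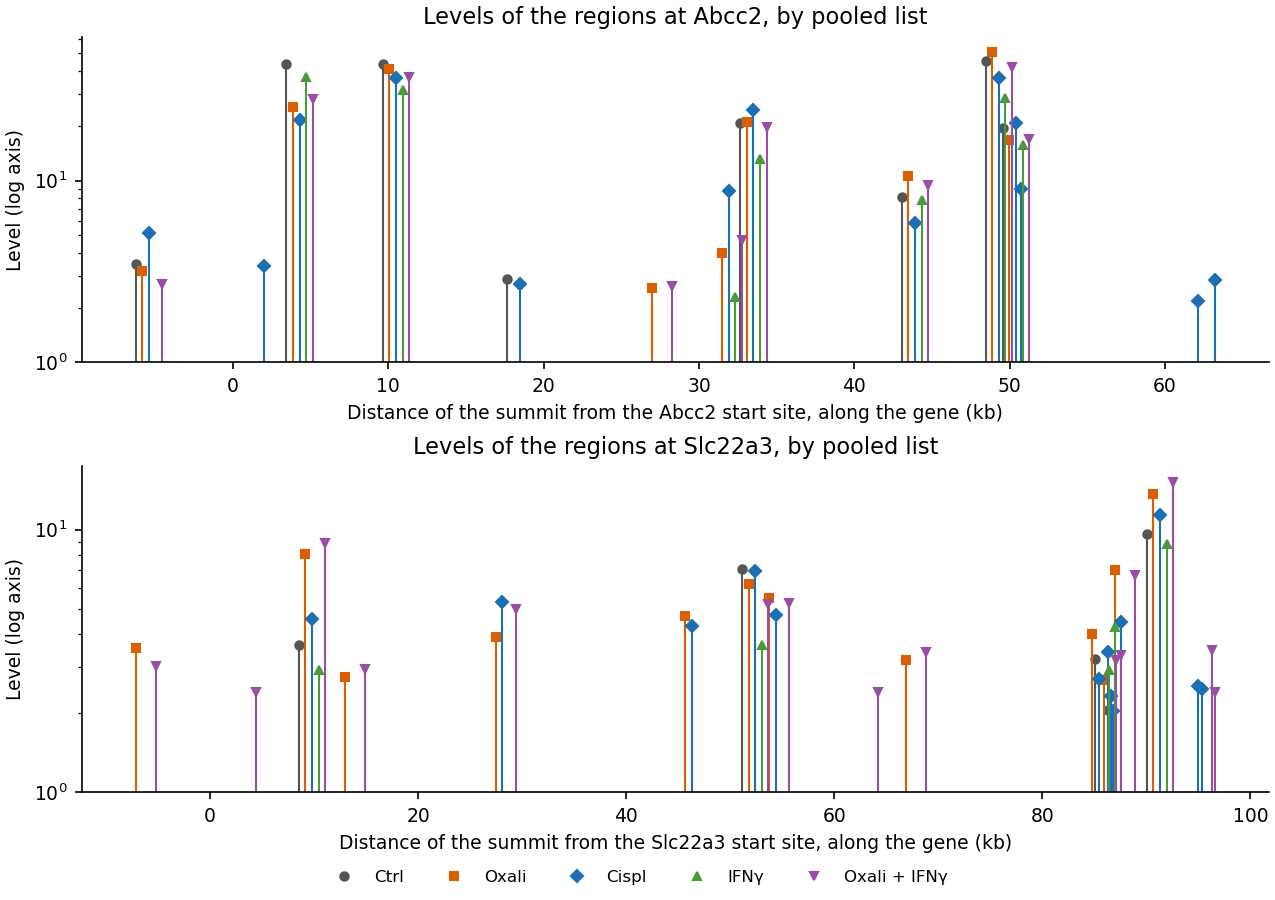
Level (pileup over genome background, log axis) of every called region at Abcc2 and Slc22a3 against the distance of its summit from the start site in kb, with symbols of the 5 pooled lists set side by side at each region. At Abcc2 the region 31.9 kb into the gene reaches 8.79 with Cispl and 3.99 with Oxali, and at Slc22a3 the region at 9.8 kb reaches 8.07 with Oxali and 4.58 with Cispl.

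Shown next are the 201 bases around the summits of the regions with the widest drug difference at Abcc2 and Slc22a3, and of the region at Slc31a1 that was called with Cispl and not Oxali. They are from the plus strand of GRCm38, with capitals for the metal, antioxidant and AP-1 cores as above.
Abcc2 intron, chr19:43813999-43814199: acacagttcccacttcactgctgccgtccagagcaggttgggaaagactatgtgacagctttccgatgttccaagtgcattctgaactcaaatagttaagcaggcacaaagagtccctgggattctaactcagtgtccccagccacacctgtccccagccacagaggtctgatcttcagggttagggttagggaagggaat
Slc22a3 intron, chr17:12497789-12497989: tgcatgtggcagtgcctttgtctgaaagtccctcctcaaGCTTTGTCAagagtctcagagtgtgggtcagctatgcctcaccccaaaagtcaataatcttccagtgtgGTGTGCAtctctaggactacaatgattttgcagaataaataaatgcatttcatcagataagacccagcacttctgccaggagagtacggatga
Slc31a1 intron, chr4:62367716-62367916: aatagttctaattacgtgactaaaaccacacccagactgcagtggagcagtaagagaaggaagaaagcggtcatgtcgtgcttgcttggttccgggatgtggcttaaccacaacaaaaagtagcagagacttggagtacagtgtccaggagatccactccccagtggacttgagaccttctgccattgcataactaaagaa
The Slc22a3 window held 1 match to the antioxidant core and 1 to the metal core, and the other windows held none of the letters searched. Over windows of this length, 14.4% of all 211107 regions held the metal core, 10.3% the antioxidant core and 21% the AP-1 core. Among the 97 member regions the numbers were 18 (18.6%), 10 (10.3%) and 13 (13.4%).

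The metallothionein genes lie close together on chromosome 8, Mt2 at 94172664 to 94173568 and Mt1 at 94179082 to 94180327. Around them 12 regions were called. The Mt1 start-site region, chr8:94178744-94179590, had pileups of 2143 in Ctrl, 1330 for Oxali, 1460 for Cispl and 955 for IFNγ, beside 1085 for the combination. Ctrl was the highest, and the Cispl level was 0.899 of the Oxali level (0.834 to 0.969). The Mt2 start-site region, chr8:94172009-94174544, gave 1169, 1100, 1130, 528 and 774. Here the level relative to Ctrl was 1.01 for Oxali (0.932 to 1.1), 0.853 for Cispl (0.785 to 0.926) and 0.57 for IFNγ (0.513 to 0.632). On the start-site scale it was 1.32 for Oxali, 1.27 for Cispl and 0.835 for IFNγ. Over the local background it was 0.75 for Oxali and 0.699 for Cispl, so the side of Ctrl on which the drugs lay depended on the scale.

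Of the 8 regions of this locus shared by Oxali and Ctrl, 3 were at least 1.5-fold higher with Oxali and 1 lower, with a median of 0.923. Of the 8 shared by Cispl and Ctrl, 2 were higher and 2 lower, with a median of 0.81. By the factors given above, both medians turn above Ctrl on the start-site scale. No region stays 1.5-fold lower on that scale, with the 2 lower ones at 0.898 and 0.973 for Cispl and the 1 for Oxali at 0.774. The shares over all regions are those given above, 29.2% higher with Oxali and 25.5% higher with Cispl. The regions that were higher are described next. The region upstream of Mt2, chr8:94161959-94163673, had pileups of 160 in Ctrl, 587 for Oxali, 566 for Cispl and 105 for IFNγ, beside 667 for the combination. The platinum lists stood well apart from Ctrl and IFNγ. Relative to Ctrl the level was 3.95 for Oxali (3.31 to 4.74), 3.12 for Cispl (2.61 to 3.74) and 0.828 for IFNγ (0.641 to 1.07), beside 3.92 for the combination (3.3 to 4.69). The IFNγ value turned to 1.21 on the start-site scale. Among all regions called in Ctrl and the drug list, 1.62% had an Oxali ratio as high and 2.2% a Cispl ratio as high. Over the local background, which was itself higher with platinum (25.1 in Ctrl, 40.6 with Oxali and 47.6 with Cispl), the ratios were 2.3 and 1.89. Between the drugs, the Cispl level was 0.79 of the Oxali level (0.702 to 0.888).

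Downstream of Mt1, chr8:94188877-94190033 gave 55, 137, 192, 34 and 207. Again the 3 platinum lists were high and Ctrl and IFNγ low, with levels relative to Ctrl of 2.68 with Oxali (1.95 to 3.74) and 3.08 with Cispl (2.27 to 4.23), although IFNγ turned above Ctrl on the start-site scale, at 1.14. Just before the Mt2 start, chr8:94171336-94171900 gave 230, 475, 391, 196 and 504. The Oxali level was 2.22 times Ctrl (1.9 to 2.61) and the Cispl level 1.5 times (1.27 to 1.77), just under the 1.5-fold line before rounding, and the Cispl level was 0.674 of the Oxali level (0.588 to 0.772). A region at chr8:94186641-94186915 was lower with the drugs, with 229, 126, 169 and 140 in Ctrl, Oxali, Cispl and IFNγ, and was not called with Oxali + IFNγ.

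**Figure D5:**
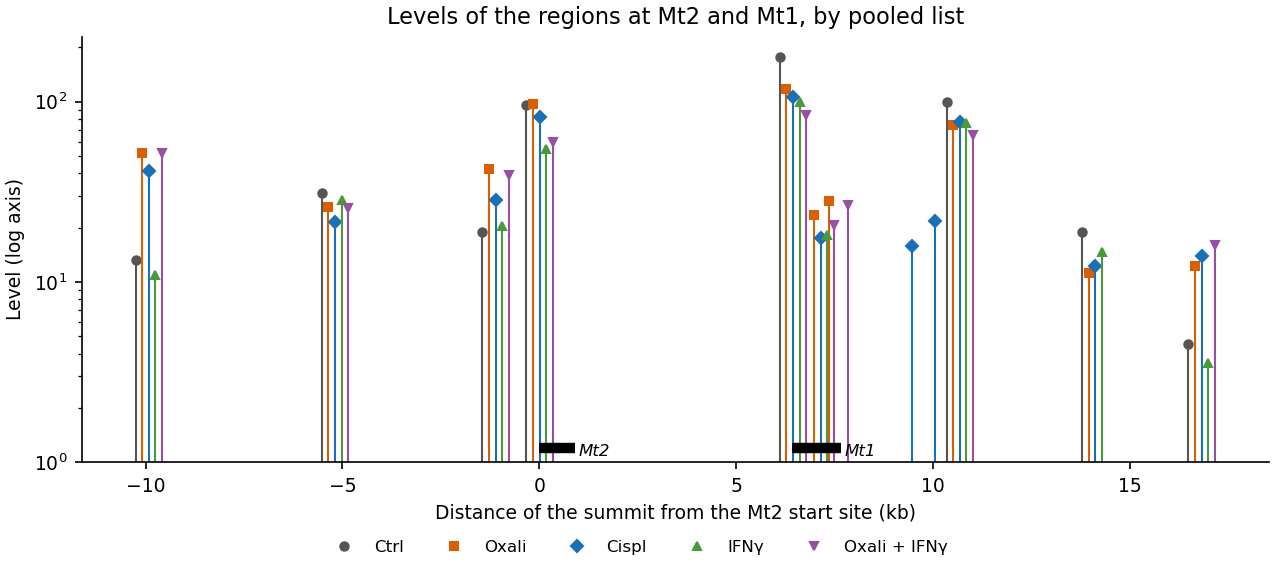
Level (pileup over genome background, log axis) of the 12 regions at Mt2 and Mt1 against the distance of their summits from the Mt2 start site in kb, with symbols of the 5 pooled lists set side by side at each region and black bars for the genes. At the far left region Ctrl (13.2) and IFNγ (10.9) lie below Oxali (52.1), Cispl (41.1) and Oxali + IFNγ (51.7), whereas at the Mt1 start Ctrl (177) is the highest.

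A few regions of this locus were called with 1 drug and not the other. Inside Mt1, chr8:94180048-94180296 was called with Oxali (pileup 317) and Oxali + IFNγ (345) and in no other list. Its neighbour within Mt1, chr8:94179695-94179979, was called in every list but Ctrl, with pileups of 266, 241, 174 and 266. Downstream, chr8:94182079-94182295 and chr8:94182630-94182822 were called with Cispl alone, with pileups of 219 and 299 over a local background of 164 each. The last lies just before a region that every list held, chr8:94182880-94183698, with pileups of 1215, 841, 1057, 734 and 842. In such a place the local background is high, and a list without a call may still hold reads.

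The sequences of the region upstream of Mt2, which had the highest platinum ratios to Ctrl over the genome background but not over the local one, and of the stronger Cispl region are shown from the plus strand of GRCm38, 201 bases around the summit, with capitals as above.
Upstream of Mt2, chr8:94162646-94162846: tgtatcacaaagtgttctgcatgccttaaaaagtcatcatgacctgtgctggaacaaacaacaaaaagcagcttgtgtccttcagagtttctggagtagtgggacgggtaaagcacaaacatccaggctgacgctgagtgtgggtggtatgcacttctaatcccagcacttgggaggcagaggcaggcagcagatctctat
Downstream of Mt1, chr8:94182624-94182824: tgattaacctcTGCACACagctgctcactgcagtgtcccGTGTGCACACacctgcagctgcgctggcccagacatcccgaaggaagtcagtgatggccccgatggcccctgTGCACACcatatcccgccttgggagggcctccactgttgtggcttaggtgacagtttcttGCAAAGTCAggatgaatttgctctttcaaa
The first window held none of the cores searched. The second held 4 matches to the metal core, 2 of which overlap, and 1 to the antioxidant core. At least 4 matches to the metal core were in 0.16% of all regions and in 4 of the 97 member regions. All 4 lie at this locus, namely the start-site regions of Mt2 and Mt1, the Cispl region shown and its neighbour downstream, which had 6 matches.

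Other genes of platinum and copper handling were listed for comparison, 23 in all. Of these, 21 had a start-site region in some list and 18 in both platinum lists. The ratio of Cispl to Oxali at these 18 start sites had a median of 0.827 and was below 1 at 16, from 0.745 to 1.41, and none passed 1.5 in either direction. Over all start-site regions called with both drugs the median was 0.881, so start sites at large went the same way. The share of them below 1 is not given. On the start-site scale the median of the 18 was 0.946, 14 of them were below 1, and the highest, at Abcc3, was 1.61. Among 10 genes of copper and metal handling, such as the chaperones Atox1 and Ccs, all 8 with a ratio were below 1, or 7 on the start-site scale. Of 8 exporters, 7 had a ratio and 6 of them were below 1, or 5 on the start-site scale. Regions unique to Oxali made up 7.45% of 188 strong Oxali regions at the 23 genes, beside 11.3% of all. Those unique to Cispl made up 22.8% of 224 strong Cispl regions, beside 20.2% of all.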

How the data were processed

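Myc-CaP cells were profiled by ATAC-seq in 5 groups of 2 libraries. The authors trimmed adapters with cutadapt, aligned to mm10 with Bowtie2 2.2.8, filtered by mapping quality with SAMtools, removed duplicates and mitochondrial reads, pooled each group and called peaks with MACS2 2.1.0 at p of at most 0.01 without a control, then removed blacklisted peaks. The deposited columns used are, per peak, a fold ratio of pileup to local background, −log10 p and −log10 q by MACS2, and the summit offset. All are the authors' values.

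The whole-number pileup and the background behind each deposited fold and −log10 p were solved (tolerance 0.01 in log10) and found for 100% of peaks. The lowest background of a list served as genome background. Genes and start sites came from GENCODE M21, and sequences from RefSeq GRCm38.p6. Since pooling left 1 list per group, values are descriptive, with exact Clopper-Pearson 95% counting intervals. Calculations used Python 3.11.15, pandas 2.3.3, numpy 2.4.6 and SciPy 1.17.1 and were tested on simulated peaks. Depth is given per list in the report.

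Named regions were every start-site region of a member, the region with the highest Ctrl level, up to 3 regions unique to 1 drug by −log10 q and up to 2 shared regions with the widest ratio past 1.5-fold. Platinum-high regions at Mt1, Mt2, Atp7b and Slc22a3 and others outside this rule were chosen after their values were seen. The members and lists were chosen with earlier results of these data known. Per-library counts were not analysed here. A few genes of the marker and comparison lists are not reported here by name.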

Additional observations from a re-analysis of the deposited data

How the results depend on the processing

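No paired analysis was possible because each deposited list used here joins both libraries of its group. This limit is that of the pooled lists, which also left no way to omit a library. The libraries of each group exist separately, but their counts were not analysed here. Of 86 alternative values for 19 results, 56 kept within 1.5 times a count or within the counting interval of a ratio, 28 moved and 2 reversed. The cause was not tested where the alternative itself does not set it. At a q-value of at most 1e-05, which admits fewer regions, 3 regions were unique to Oxali between the drugs and 17 were gained with Oxali + IFNγ. With the intervals of each list kept apart, 1 region was lost with Cispl and 7 were gained with IFNγ, or 8 when a wider overlap was asked. At equal ranks of 100000 regions a list, 12 regions were unique to Cispl, 9 were gained and 7 lost with Oxali, 13 gained and 6 lost with Cispl, and 9 gained and 9 lost with Oxali + IFNγ. With a window of 5 kb, 3 shared regions were at least 1.5-fold higher with Cispl. On the start-site scale 8 were higher with Cispl and 3 with Oxali, and over the local background 4 were higher with Oxali. At 2-fold, 1 was higher with Cispl and 0 with Oxali. These are counts at the member genes, without shares over all regions under the same settings.

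The median ratio of Cispl to Oxali reversed to 1.02 on the start-site scale, as did the Mt1 start site, to 1.03. That scale multiplies the ratio of every region, member or not, by the same factor. The other start-site ratios on this scale were 0.994 for Slc31a1, 0.923 for Slc31a2, 0.953 for Atp7a, 0.844 for Atp7b and 0.963 for Mt2. Over the local background the ratios that moved were 0.952 for Slc31a1, 0.862 for Atp7b, 0.793 for Mt1 and 0.932 for Mt2. With 1 p threshold for all lists, no count moved past 1.5 times. Slc22a2, Slc22a3 and Abcc2 gave no start-site ratio. Depth limits regions with pileups near 18 to 26, where a missing call does not show closed chromatin.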
